A study of Macaca mulatta with 51 samples.

Results

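The core genes of the circadian clock were followed in RNA sequencing counts of adipose tissue (AT) and gastrocnemius skeletal muscle (SM) biopsies of rhesus macaques treated with FGF21, a hormone that acts on metabolism. The genes were chosen by symbol: ARNTL (also called BMAL1), CLOCK, PER1, PER2, PER3, CRY1, CRY2, NR1D1, NR1D2 and DBP. Of these 10 genes 9 had an entry in the table of 16033 genes, and PER3 is not analysed here. In the table the genes carry the human identifiers ENSG00000133794 (ARNTL), ENSG00000134852 (CLOCK), ENSG00000179094 (PER1), ENSG00000132326 (PER2), ENSG00000008405 (CRY1), ENSG00000121671 (CRY2), ENSG00000126368 (NR1D1), ENSG00000174738 (NR1D2) and ENSG00000105516 (DBP). The animals were adult macaques made obese by a high-fat diet (DIO) and not diabetic, both males and ovariectomized females, and every group shared that diet. Each animal served as its own untreated control: biopsies were taken pre-treatment, post-treatment after 12 weeks of subcutaneous native human FGF21, and at washout, 16 weeks after dosing had stopped. There was no group given vehicle, so time and treatment cannot be told apart. The paper reports that the animals lost weight over the treatment and regained it during washout. Its authors could not separate FGF21 activity from responses to these weight changes. Counts were used for 48 libraries, 27 of AT from 10 animals (10 pre-treatment, 9 post-treatment, 8 washout) and 21 of SM from 8 animals (6, 8 and 7).

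The clock of a cell is a loop of transcription that turns over about once a day. ARNTL pairs with CLOCK, or with the CLOCK paralogue NPAS2, and the pair activates genes that include the PER, CRY and NR1D genes and DBP. PER and CRY proteins then inhibit the pair, and the nuclear receptors NR1D1 and NR1D2 (REV-ERB alpha and beta) repress ARNTL, so that in many tissues ARNTL RNA is high when NR1D1 and DBP RNA are low. DBP is a PAR bZIP transcription factor that passes the rhythm on to output genes. A biopsy is a single point of that cycle. The hour of the biopsies is not given in the sources used here, so a difference between time points and a difference in the hour of sampling cannot be told apart for any value below.

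Library totals ran from 14455195 to 23940980 counts. The lowest count of any of the 9 genes in any library was 62, for ARNTL in AT, so none was near the limit of detection. Levels are given as CPM, a library's counts scaled to a fixed total with edgeR's trimmed mean of M-values (TMM), and are compared within a gene only, since the table holds no gene lengths. The labelled tissues matched their markers: 4 adipocyte genes with an entry summed to 9835 to 31200 CPM in AT and 32.05 to 1484 CPM in SM, and 8 muscle genes summed to 49.81 to 163.1 CPM in AT and 54340 to 136600 CPM in SM. Fold changes and p-values are from edgeR's quasi-likelihood test with animal and time point as factors, and a gene was differentially expressed (DE) at a Benjamini-Hochberg adjusted p under 0.05 over all genes of the tissue with a change of over 0.26 on the log2 scale, up or down. The labels name the animals, so the samples of a group are separate animals.

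**Figure D1:**
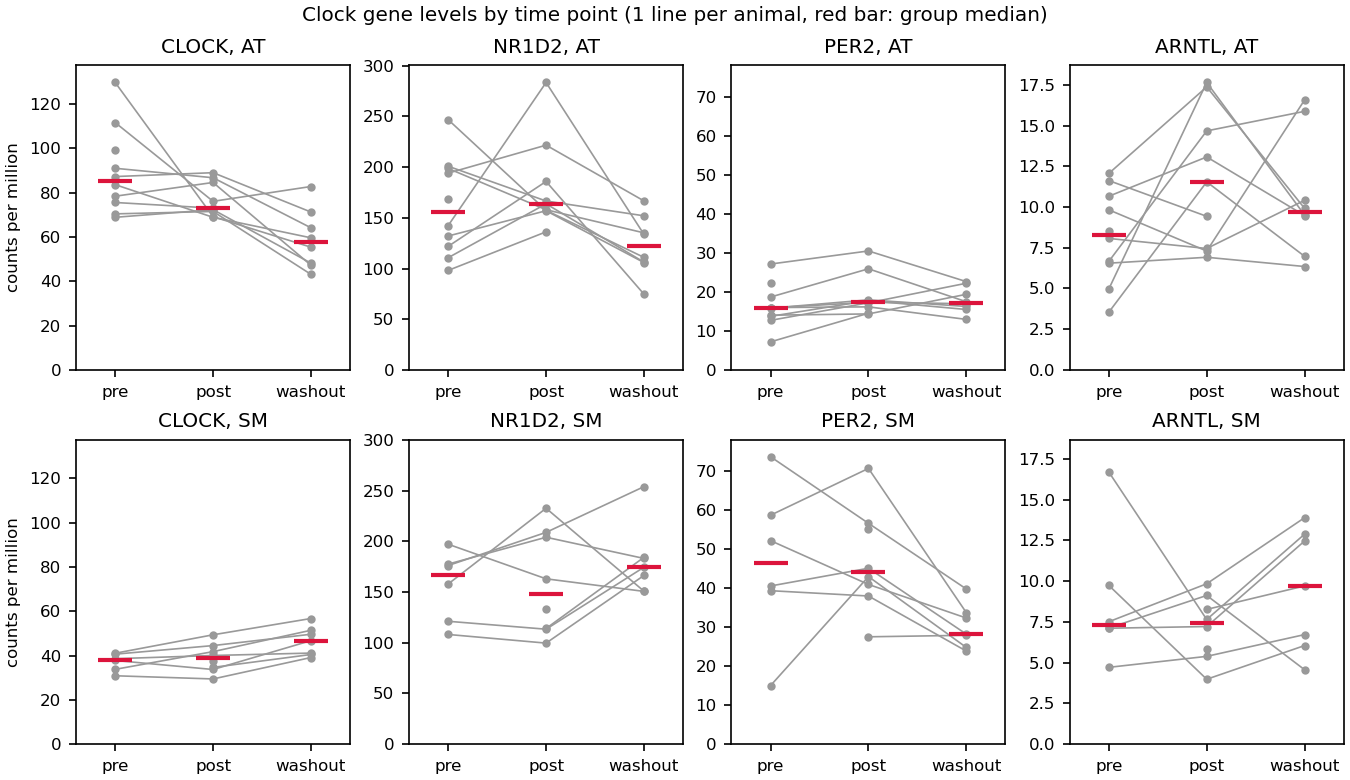
CPM (linear axis, scaled within each tissue) of CLOCK, NR1D2, PER2 and ARNTL in every library, AT above and SM below, by time point. Lines join the libraries of an animal and red bars mark group medians. CLOCK and NR1D2 are lower in AT at washout, and ARNTL spreads widely between animals.

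CLOCK, the partner of ARNTL in the activating arm, fell in AT at washout. Its level in AT was 68.92 CPM at the lowest, 85.5 at the median and 129.8 at the highest pre-treatment, and 68.92, 73.06 and 89.07 CPM post-treatment. At washout the same 3 values were 43.16, 57.55 and 82.83 CPM. The groups overlapped, yet 6 of 8 washout samples lay below every post-treatment sample and 6 of 8 lay below every pre-treatment sample. Post-treatment CLOCK was not DE against pre-treatment (log2 fold change -0.18, adjusted p = 0.223 by edgeR). From post-treatment to washout its log2 fold change was -0.43 (SE 0.108, adjusted p = 0.00482 by edgeR), with 7 of 8 animals lower. Against pre-treatment the washout value was -0.61 (SE 0.108, adjusted p = 4.07e-04 by edgeR), with 8 of 8 animals lower. The names of the libraries fall into 3 identifier series of unstated meaning, and among the AT libraries of the last series alone (7, 7 and 4) the 2 differences were -0.45 and -0.69, with adjusted p of 0.130 and 0.0553 by edgeR.

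NR1D2, a repressor of the loop, was the other clock gene that fell in AT at washout. Its lowest, median and highest levels were 98.18, 155.4 and 246.8 CPM pre-treatment, 136.2, 163.8 and 283.5 CPM post-treatment and 74.72, 122.3 and 166.7 CPM at washout. At washout 6 of 8 samples were below every post-treatment sample, while only 1 was below every pre-treatment sample. The log2 fold change was -0.64 from post-treatment to washout (SE 0.146, adjusted p = 0.00244 by edgeR) and -0.43 from pre-treatment to washout (SE 0.145, adjusted p = 0.0374 by edgeR). All 8 animals were lower in both comparisons. The second call was lost when any 1 of the animals 20261, 20275, 22130, 23004, 24849 and 26292 was left out, where the adjusted p was 0.0524 to 0.0906, and when counts were scaled by library size alone (adjusted p = 0.123 by edgeR). It was lost as well without the animal term, that is with no replicate block (adjusted p = 0.119 by edgeR). In the last identifier series the 2 values were -0.54 and -0.47, with adjusted p of 0.150 and 0.278 by edgeR.

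CLOCK and NR1D2 were the 2 of 9 clock genes that were DE in each washout comparison of AT, and both fell. Over all genes tested in AT, 35.4% were DE from post-treatment to washout and 20.5% from pre-treatment to washout, so the share of clock genes was below that of all genes in the first and close to it in the second. From pre- to post-treatment 0 of 9 clock genes were DE, against 15.5% of all genes.

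NR1D1, the paralogue of NR1D2, had lowest, median and highest levels in AT of 28.39, 37.97 and 66.4 CPM pre-treatment, 23.82, 43.14 and 58.07 CPM post-treatment and 22.74, 32.9 and 50.67 CPM at washout. The groups overlapped over most of their range. Its log2 fold change at washout was -0.33 against post-treatment (adjusted p = 0.153 by edgeR) and -0.39 against pre-treatment (adjusted p = 0.129 by edgeR), with 6 of 8 animals lower in each. DBP, the output factor, had levels of 9.79, 13.29 and 26.3 CPM pre-treatment, 10.65, 15.29 and 24.25 CPM post-treatment and 7.619, 11.68 and 17.68 CPM at washout. DBP was lower in 7 of 8 animals from post-treatment to washout, and its difference of -0.48 on the log2 scale (SE 0.196) missed the threshold (adjusted p = 0.0596 by edgeR). In this comparison DBP was DE once animal 24849 was left out (adjusted p = 0.0272), and NR1D1 once 20275 was (adjusted p = 0.0415).

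Among the period genes, PER2 was higher post-treatment in 9 of 9 animals in AT. Its lowest, median and highest levels were 7.19, 15.86 and 27.12 CPM pre-treatment, 14.34, 17.33 and 30.47 CPM post-treatment and 12.94, 17.21 and 22.62 CPM at washout. The log2 fold change from pre- to post-treatment was 0.31 (SE 0.118) and it was not DE (adjusted p = 0.0785 by edgeR). The difference per animal ran from 0.0166 to 1.004 on the log2 scale, and only 1 post-treatment sample was above all pre-treatment samples. PER1, a family member that responds to glucocorticoids and feeding, had AT levels of 34.22, 75.91 and 109.5 CPM pre-treatment, 35.88, 72.24 and 90.98 CPM post-treatment and 51.18, 68.64 and 104.8 CPM at washout. The PER1 differences in AT were -0.03, -0.01 and -0.04 on the log2 scale, smaller than their SE of about 0.20 in each comparison, and their sign changed with the scaling and with the tool.

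The cryptochromes, the partners of PER in the inhibitory complex, were not DE in AT. CRY1 had the narrowest range of the 9 genes in AT, with levels of 41.04, 49.05 and 55.25 CPM pre-treatment, 37.05, 40.2 and 51.33 CPM post-treatment and 38.01, 46.24 and 55.07 CPM at washout. CRY1 was lower post-treatment in 8 of 9 animals, and 5 of 9 post-treatment samples lay below all pre-treatment samples, a difference of -0.12 on the log2 scale (SE 0.0640, adjusted p = 0.186 by edgeR). CRY2 had levels of 103, 139.4 and 206.1 CPM pre-treatment, 69.3, 117.4 and 158.4 CPM post-treatment and 83.34, 125.3 and 200.4 CPM at washout. CRY2 was lower post-treatment in 7 of 9 animals (log2 fold change -0.34, SE 0.171, adjusted p = 0.170 by edgeR).

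ARNTL, the activator opposite in phase to NR1D1, varied most between animals in AT. Its levels were 3.543, 8.311 and 12.06 CPM pre-treatment, 6.913, 11.54 and 17.64 CPM post-treatment and 6.346, 9.71 and 16.57 CPM at washout. Post-treatment 4 of 9 samples stood above every pre-treatment sample, and 6 of 9 animals were higher. The log2 fold change was 0.53 (SE 0.226, adjusted p = 0.105 by edgeR) from pre- to post-treatment, -0.14 (adjusted p = 0.673) from post-treatment to washout and 0.40 (SE 0.236, adjusted p = 0.249 by edgeR) from pre-treatment to washout, and none was DE.

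**Figure D2:**
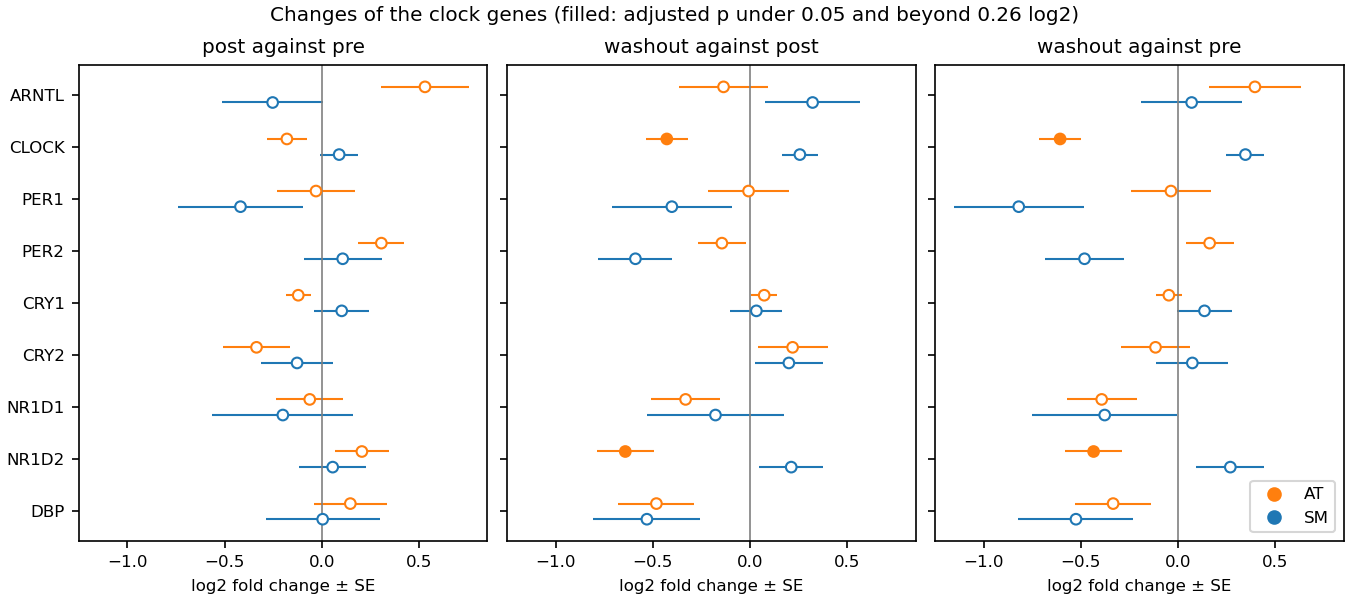
Log2 fold change of each clock gene in the 3 comparisons, by tissue, with its SE as the bar. Filled markers are DE. The DE values are CLOCK and NR1D2 in AT at washout.

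In AT, macrophage markers stood high with ARNTL over the animals of a time point, but did not always change with it between time points. The 17 macrophage genes with an entry summed to 1673, 3960 and 6651 CPM at the lowest, median and highest pre-treatment, 4224, 8631 and 20390 CPM post-treatment and 1328, 2160 and 8188 CPM at washout, and none was at 0. Of these, 5 rose from pre- to post-treatment, 17 fell from post-treatment to washout and 6 fell from pre-treatment to washout (edgeR), with median log2 fold changes of 0.96, -1.84 and -0.78. The shares DE were 29.4%, 100% and 35.3%, beside 15.5%, 35.4% and 20.5% of all genes. The medians of all genes in these comparisons were 0.03, -0.002 and -0.02. ARNTL itself was at 0.53, -0.14 and 0.40, opposite in sign to the markers from pre-treatment to washout. In bulk tissue, fewer cells of a type and less RNA per cell cannot be told apart.

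Over animals of a time point, the log2 level of ARNTL in AT followed that of the summed macrophage markers. Pearson's r was 0.89 pre-treatment (n = 10, permutation p = 7.0e-04), 0.94 post-treatment (n = 9, exact permutation p = 5.51e-04) and 0.95 at washout (n = 8, exact permutation p = 0.00104). Each had an adjusted p of 0.0188 over the 54 relations of the 9 genes with this sum. These relations were added after seeing the data, so their p-values are not independent of the data. Spearman's rho was 0.81, 0.92 and 0.79 (permutation p = 0.00731, 0.00131 and 0.0279), with adjusted p of 0.120, 0.0708 and 0.284, so by rank none passed. With the 2 animals farthest from the median of the macrophage sum removed, r was 0.70, 0.90 and 0.89. These 2 were the lowest pre-treatment and the highest at washout. Within the last identifier series it was 0.80 pre-treatment and 0.93 post-treatment. These were the only 3 of the 54 relations that passed, and in SM r of ARNTL was 0.31, -0.11 and 0.73. The 8 other clock genes ran against the macrophage sum in AT, with r below 0 in 24 of 24 relations, from -0.78 to -0.04, and in SM in 17 of 24. The share of all genes with r below 0 against this sum was not counted.

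**Figure D3:**
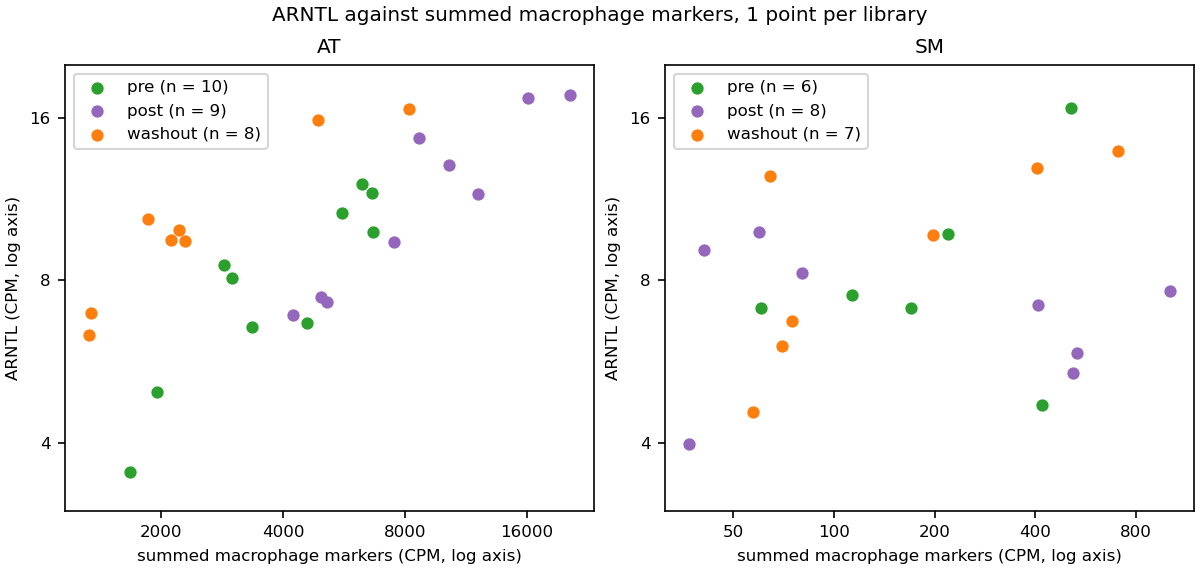
ARNTL level against the summed level of 17 macrophage genes in each library of AT (left) and SM (right), both in CPM on log axes, coloured by time point. In AT ARNTL is high where the macrophage sum is high at all 3 time points, and the washout points lie above the others at a like sum.

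With the summed macrophage markers as a covariate, chosen after seeing the data, 4 of 9 clock genes in AT were DE in each washout comparison, where 13.7% of all genes were DE from post-treatment to washout and 27.0% from pre-treatment to washout in the same fit. ARNTL then rose from post-treatment to washout by 0.94 (SE 0.166, adjusted p = 0.00133 by edgeR) and from pre-treatment to washout by 0.78 (SE 0.120, adjusted p = 7.22e-05 by edgeR), where the first of these had been -0.14 without the covariate. Its pre- to post-treatment value went from 0.53 to -0.16 (adjusted p = 0.593 by edgeR). In that comparison 0.958% of all genes were DE with the covariate, against 15.5% without it. NR1D1 was at -0.88 and -0.58 and DE in the washout comparisons (adjusted p = 0.00956 and 0.00661 by edgeR). CLOCK and NR1D2 stayed DE in both, at -0.64 and -0.68 for CLOCK and -0.94 and -0.54 for NR1D2. The covariate changed with the time points itself, higher post-treatment in 8 of 9 animals and lower at washout than post-treatment in 7 of 8, so the covariate and the time points overlap in these values.

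The other marker lists in AT were as follows, where 15.5%, 35.4% and 20.5% of all genes were DE in the 3 comparisons. Of 4 adipocyte genes 2 fell from pre- to post-treatment and 1 rose from post-treatment to washout, and of 8 muscle genes 1 rose in the second comparison. All 3 erythroid genes tested rose from post-treatment to washout (median log2 fold change 1.69), where HBA1 and HBA2 were at 0 in every library and the sum went from 872.7 to 5546 CPM at the median. The erythroid sum was 2565 CPM pre-treatment, and 1 of the erythroid genes fell from pre- to post-treatment. Of 4 endothelial genes 1 rose at washout against each earlier time point. The part of these lists in the clock gene values was not tested. In SM none of the marker genes was DE, and the erythroid sum at the median was 38.27, 61.47 and 767.2 CPM.

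In SM none of the 9 clock genes was DE in any comparison. Of all genes 0.00% were DE from pre- to post-treatment (0 by edgeR and 0 by DESeq2, with 409 at an unadjusted p under 0.05), 0.190% from post-treatment to washout and 0.0634% from pre-treatment to washout. CLOCK was higher at washout in every animal, with levels of 30.89, 38.2 and 41.06 CPM pre-treatment, 29.45, 38.72 and 49.39 CPM post-treatment and 39.13, 46.76 and 56.75 CPM at washout. It was higher in 6 of 6 animals against pre-treatment (log2 fold change 0.35, SE 0.0974, unadjusted p = 0.00287 and adjusted p = 0.209 by edgeR) and in 7 of 7 against post-treatment (0.26, adjusted p = 0.188). DESeq2 gave the first of these an adjusted p of 0.0155.

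PER2 in SM went the other way at washout. Its levels were 15.01, 46.33 and 73.62 CPM pre-treatment, 27.5, 43.99 and 70.63 CPM post-treatment and 23.84, 28.18 and 39.74 CPM at washout, and 6 of 7 animals were lower at washout than post-treatment (log2 fold change -0.59, SE 0.191, adjusted p = 0.161 by edgeR). With the identifier series of the libraries as a covariate the value was -0.89 (adjusted p = 0.0145 by edgeR), and within the last series it was -0.75 (adjusted p = 0.0400 by edgeR). In these fits 21% and 23.8% of all genes were DE, against 0.190% in the main fit. Within the last series only animals 21189 and 24849 had SM libraries of both time points. In SM 6 of 7 washout libraries belonged to the last series, against 3 of 8 post-treatment and 2 of 6 pre-treatment libraries.

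PER1 had the widest range of the clock genes, from 31.65 to 344 CPM across SM pre-treatment, with levels of 43.89, 102.1 and 204.2 CPM post-treatment and 47.57, 62.19 and 111.2 CPM at washout. Its median pre-treatment was 130.4 CPM. The log2 fold change from pre-treatment to washout was -0.82 (SE 0.333, adjusted p = 0.321 by edgeR), with 4 of 6 animals lower. DBP in SM had levels of 6.093, 19.48 and 29.06 CPM, 10.02, 18.74 and 25.27 CPM and 9.088, 11.94 and 15.28 CPM, and 6 of 7 animals were lower at washout than post-treatment (log2 fold change -0.53, SE 0.275, adjusted p = 0.340 by edgeR).

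The remaining SM genes moved less than their spread. ARNTL lay between 3.984 and 16.7 CPM with medians of 7.322, 7.436 and 9.713 CPM, NR1D1 between 9.332 and 56.42 CPM with medians of 32.42, 23.66 and 20.67 CPM, and NR1D2 between 99.67 and 254 CPM with medians of 167.1, 148.3 and 174.5 CPM. CRY1 lay between 13.95 and 28.3 CPM with medians of 18.94, 22.66 and 21.75 CPM, and CRY2 between 119.9 and 291.6 CPM with medians of 188.8, 162.8 and 198.2 CPM. Their log2 fold changes ran from -0.38 for NR1D1 to 0.32 for ARNTL, with adjusted p of at least 0.520 by edgeR.

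The change in AT differed from the change in SM for the 2 genes that fell in AT. For CLOCK the AT change minus the SM change was -0.70 on the log2 scale from post-treatment to washout (SE 0.142, adjusted p = 7.07e-04 by edgeR) and -1.02 from pre-treatment to washout (SE 0.147, adjusted p = 1.08e-05 by edgeR), the gene being lower at washout in AT and higher in SM. For NR1D2 the differences were -0.87 (SE 0.220, adjusted p = 0.00508 by edgeR) and -0.77 (SE 0.227, adjusted p = 0.0176 by edgeR). That made 2 of 9 clock genes, against 22.7% and 17.5% of all genes in the same 2 tests. From pre- to post-treatment 0 of 9 differed, against 0.0487% of all genes. With scaling by library size alone the second NR1D2 difference was no longer DE (adjusted p = 0.118 by edgeR), while PER2 then passed at 0.86 (adjusted p = 0.0300 by edgeR), where it was 0.58 with an adjusted p of 0.0733 before.

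Before treatment 8 of 9 clock genes differed in level between the tissues, against 77.8% of all genes. All libraries of both tissues were scaled together for this test, while the CPM of genes given elsewhere were scaled within each tissue. The 2 scales can differ in direction. By the CPM scaled within each tissue the pre-treatment median of ARNTL was 8.311 in AT and 7.322 in SM. PER2 was lower in AT than in SM, by a log2 difference of -2.24 (SE 0.158, adjusted p = 4.17e-15 by edgeR), PER1 by -1.59 (SE 0.279, adjusted p = 4.18e-06) and CRY2 by -1.26 (SE 0.190, adjusted p = 2.57e-07). DBP, ARNTL and NR1D2 were lower in AT as well, with log2 differences of -1.07, -0.78 and -0.70, while CLOCK and CRY1 were each higher in AT by 0.45. NR1D1 was not DE between the tissues (-0.16, adjusted p = 0.598 by edgeR). These values depend on the scaling between 2 tissues of very different composition: with library size alone the median of all genes moved from 0.09 to 0.80, and 5 of 9 clock genes were called, with ARNTL at -0.04, NR1D2 at 0.01, DBP at -0.36 and NR1D1 at 0.53.

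The wider clock machinery was read from a list of 28 genes, of which 26 were tested in AT and 25 in SM. From pre- to post-treatment 1 of 26 was DE in AT (3.85%, against 15.5% of all genes): PRKAA2, a catalytic subunit of the AMP-activated kinase, which phosphorylates CRY1, fell by 0.71 on the log2 scale (SE 0.178, adjusted p = 0.0154 by edgeR) and was lower in 9 of 9 animals. Its value was -0.27 with the macrophage covariate (adjusted p = 0.424 by edgeR), where 0.958% of all genes were DE. The call of PRKAA2 was lost with no replicate block (adjusted p = 0.0546 by edgeR). The list's median log2 fold change was 0.04, beside 0.03 for all genes.

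From post-treatment to washout 6 of 26 were DE in AT, 1 up and 5 down, which is 23.1% against 35.4% of all genes. The gene that rose was NPAS2, the paralogue that can stand in for CLOCK, with levels of 6.465, 7.973 and 10.56 CPM pre-treatment, 4.683, 8.082 and 10.7 CPM post-treatment and 7.471, 12.44 and 14.11 CPM at washout. Of the 8 washout samples 5 were above every earlier sample of either time point. Its log2 fold change was 0.52 against post-treatment (SE 0.150, adjusted p = 0.0103 by edgeR, 6 of 8 animals higher) and 0.54 against pre-treatment (SE 0.151, adjusted p = 0.0134 by edgeR, 8 of 8 higher). The first lost its call without animal 21189 (adjusted p = 0.0506), the second without animal 20261 (adjusted p = 0.0568). The first was lost as well with the 2 time points alone in the fit (adjusted p = 0.0795) and with the macrophage covariate (adjusted p = 0.138). NPAS2 and CLOCK moved in opposite directions in AT at washout.

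The 5 that fell against post-treatment were NAMPT, the enzyme of NAD salvage (-0.60, SE 0.126, 7 of 8 animals lower), the kinase GSK3B (-0.52, SE 0.104, 8 of 8 lower), TEF, a PAR bZIP factor related to DBP (-0.51, SE 0.156), the cell cycle kinase WEE1 (-0.51, SE 0.163) and the glucocorticoid-induced factor KLF9 (-0.45, SE 0.168). Their adjusted p from edgeR ran from 9.55e-04 for GSK3B to 0.0407 for KLF9. WEE1 lost its call without 20275, 21866 or 22130, and KLF9 without any of 7 animals. With the macrophage covariate NAMPT was at -0.32 and WEE1 at -0.22, and neither was DE (adjusted p = 0.230 and 0.575 by edgeR). The median of the list was -0.08, beside -0.002 for all genes.

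From pre-treatment to washout 6 of 26 were DE, 1 up and 5 down, which is 23.1% against 20.5% of all genes. Beside NPAS2 these were GSK3B (-0.72, SE 0.104, adjusted p = 5.37e-05 by edgeR, 8 of 8 animals lower), PRKAA2 (-0.63, SE 0.185), NAMPT (-0.37, SE 0.125), FBXW11, a part of a ubiquitin ligase that acts on PER proteins (-0.27, SE 0.0692, 8 of 8 lower), and RORB (-1.25, SE 0.323), a nuclear receptor near the limit of detection at 0.056 to 3.061 CPM. NAMPT lost its call when any of 5 animals was left out, with the macrophage covariate (adjusted p = 0.110) and with no replicate block (adjusted p = 0.0538). PRKAA2 lost it without the pre-treatment sample of animal 20275 (adjusted p = 0.0517) and with no replicate block (adjusted p = 0.0658), and FBXW11 without animal 20275, where its value was under the fold limit. The list's median was -0.13, beside -0.02 for all genes. In SM 0 of 25 were DE in each comparison.

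Signals that set the clock from outside were counted in a pair of shorter lists. Of 10 glucocorticoid response genes, PDK4 rose in AT from pre- to post-treatment, 6 fell from post-treatment to washout and NR3C1, the glucocorticoid receptor, fell from pre-treatment to washout. Of 12 immediate early genes, JUN rose post-treatment, JUN and ATF3 fell and NR4A2 rose from post-treatment to washout, and NR4A2 was higher at washout than pre-treatment. Of the 10, 10.0%, 60.0% and 10.0% were DE in the 3 comparisons and of the 12, 8.33%, 25.0% and 8.33%, against 15.5%, 35.4% and 20.5% of all genes. From post-treatment to washout the medians were -0.51 and -0.15, beside -0.002 for all genes. These genes are named because they passed, after their values were seen. In SM 0 of 10 and 0 of 12 were DE.

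The phase relations between libraries were read from how clock genes stood together over animals within a time point. In AT the r of ARNTL with the other clock genes was below 0 in 23 of 24 relations (8 genes at 3 time points), and in SM in 17 of 24. The share of all genes with r below 0 was not counted. None of the 48 relations passed after adjustment (smallest adjusted p = 0.263 by the permutation test), and 5 had an unadjusted p under 0.05. With the 2 animals farthest from the median of ARNTL removed, 19 of 24 were below 0 in AT and 13 of 24 in SM. That of PER2 in AT post-treatment then went from -0.43 to 0.85, where both animals removed were the lowest in ARNTL. In AT the macrophage sum had a positive r with ARNTL and a negative r with the other 8 genes at every time point. The part of the markers in the r of ARNTL with these genes was not tested. The strongest in AT was NR1D1 at washout, with r = -0.83 (n = 8, exact permutation p = 0.0109) and rho = -0.81 (exact permutation p = 0.0218). Its r was -0.80 once the 2 animals farthest from the median of ARNTL were removed. The second was CRY2 pre-treatment, with r = -0.76 (n = 10, permutation p = 0.0107), rho = -0.81 (permutation p = 0.00709) and r = -0.76 within the 7 libraries of the last series.

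In SM the same relation differed from gene to gene. ARNTL and PER2 had r of -0.65, -0.62 and -0.79 at the 3 time points, the last with rho = -0.89 (n = 7, exact permutation p = 0.0417 for r and 0.0123 for rho). This last r was -0.31 once the 2 animals farthest from the median of ARNTL were removed. ARNTL and NR1D1 had r of -0.29, -0.30 and 0.73, and the last value, of the opposite sign, was 0.35 without 2 animals and 0.80 within the last series. Neither had an adjusted p under 0.05.

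**Figure D4:**
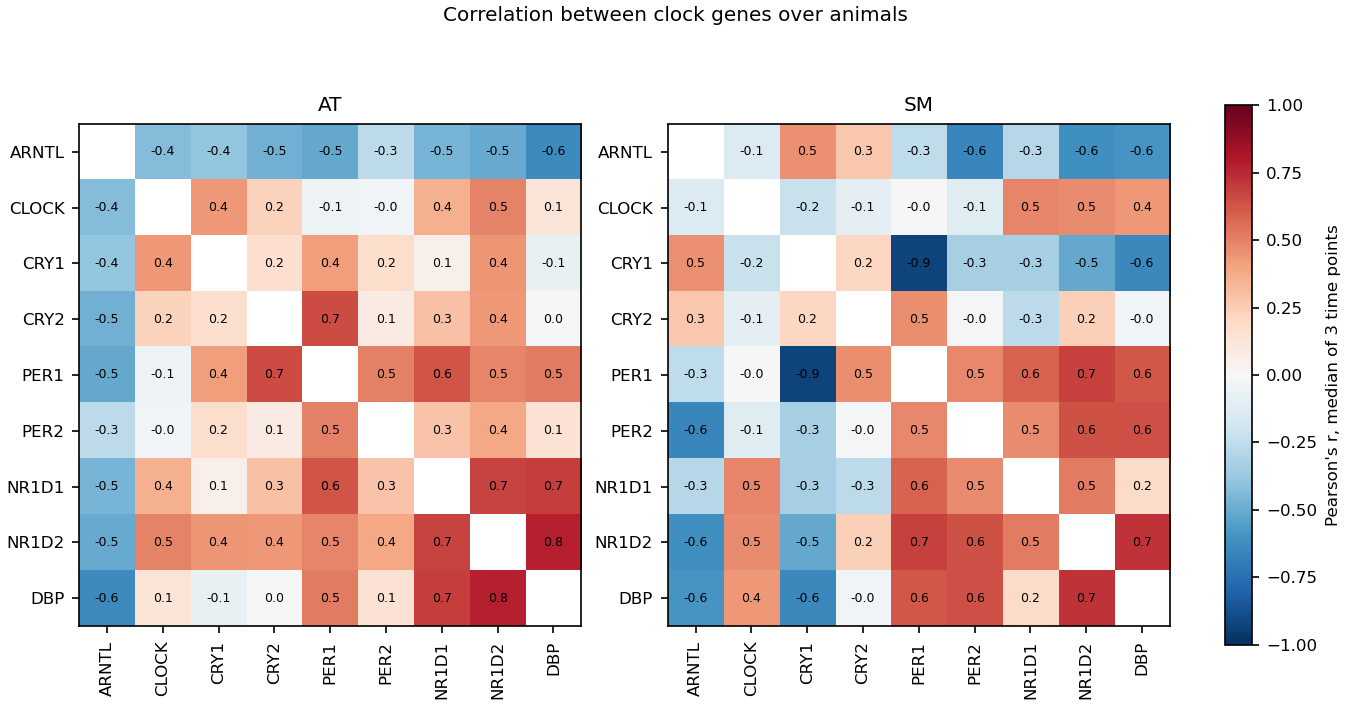
Pearson's r between clock genes over the animals of AT (left) and SM (right), as the median of the 3 time points, from blue (negative) to red (positive). ARNTL is mostly negative against the others in AT, and the target genes are mostly positive among themselves.

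The 5 targets of the activator that share a part of the day, PER1, PER2, NR1D1, NR1D2 and DBP, mostly stood together. Over their 10 pairs the median r was 0.56 in AT, where 28 of 30 values were positive, and 0.60 in SM, where 25 of 30 were. Over all 28 pairs of clock genes without ARNTL it was 0.40 in AT, with 68 of 84 positive, and 0.16 in SM, with 48 of 84. In AT 8 of 10 pairs were positive at all 3 time points, and in SM 5 of 10. NR1D1 and DBP had r of 0.69, 0.65 and 0.84 in AT, and NR1D2 and DBP had r of 0.82, 0.78 and 0.20. The lowest medians over time points in AT were those of PER2, at 0.15 with DBP and 0.29 with NR1D1. These r share libraries and their scaling, and are a description. In AT these genes also ran against the macrophage sum, and its part in these r was not tested. Of all 36 pairs of clock genes, 6 had r of opposite sign in AT and SM at all 3 time points and 8 at 2. PER1 and CRY1, one of the 8 and picked out for the size of its r after its values were seen, had r of -0.94, -0.93 and -0.32 in SM and 0.61, 0.42 and -0.24 in AT.

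The distance between ARNTL and its repressor within a library can be read as a phase only if the hour of sampling was alike. Over the AT animals of a time point the macrophage sum followed ARNTL and had r of -0.50, -0.45 and -0.67 with NR1D1. Its part in this distance was not tested. The log2 level of ARNTL minus that of NR1D1 was higher at washout than pre-treatment in 6 of 8 animals in AT, with a mean change of 0.83 (SD 0.938), and in 5 of 6 in SM, with a mean of 0.62 (SD 1.05). From pre- to post-treatment it moved by 0.58 (SD 1.36) in AT, with 5 of 9 animals higher, and by -0.05 (SD 0.938) in SM. The level of ARNTL minus that of DBP was higher at washout than post-treatment in 7 of 7 animals in SM (mean 0.83, SD 0.480) and in 4 of 8 in AT (mean 0.29, SD 1.02). No p is given for these, since they combine genes.

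Between AT and SM of the same animal at the same biopsy, 15 of 18 relations were above 0 (median r 0.44), and none passed after adjustment (smallest adjusted p = 0.182 by the exact permutation test, with 3 unadjusted p under 0.05). PER2 had r = 0.85 pre-treatment (n = 6, exact permutation p = 0.0278, rho = 0.94 with exact permutation p = 0.0167) and 0.82 post-treatment (n = 7, exact permutation p = 0.0193, rho = 0.64 with exact permutation p = 0.139). With 2 animals, those most distant from the AT median, removed, r of PER2 was 0.83 and 0.71. NR1D1 had r = -0.59 pre-treatment (n = 6, exact permutation p = 0.219, rho = -0.60 with exact permutation p = 0.242), which was 0.46 with 2 animals removed, and r = 0.80 post-treatment (n = 7, exact permutation p = 0.0304, rho = 0.82 with exact permutation p = 0.0341). At washout 5 animals had both tissues, too few for a correlation, and no identifier series held enough animals with both tissues.

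The genes most like ARNTL, by Pearson's r of log2 CPM over the libraries of a tissue after time point and animal effects were taken out, were different in the tissues. In AT (27 libraries) those with the highest r included TREM2 at 0.93, a receptor of macrophages and on the macrophage list, IRF5 (0.93), DEF6 (0.93), PARVG (0.93) and TBC1D10C (0.93). The lowest were PARK2 (-0.89), PAIP2B (-0.89), CCDC136 (-0.89), PFKM (-0.88), NBR1 (-0.88) and AP1M2 (-0.87). All 8 other clock genes had a negative r with ARNTL in AT, from -0.71 for CRY2 to -0.26 for PER2. Counted from the lowest r among 12114 genes, CRY2 stood at rank 452 and PER2 at rank 4027. The share of all genes with a negative r was not counted, so the sign cannot be read as particular to clock genes. In SM (21 libraries) the highest were ZNF786 (0.87), ZNF646 (0.81), ADGRF4 (0.80), CNNM4 (0.79), STKLD1 (0.78) and NCEH1 (0.77), and the lowest were FRA10AC1 (-0.92), CENPM (-0.80), FDXACB1 (-0.78), IFIT3 (-0.78), PHF23 (-0.77) and LCA5L (-0.76). In SM r with ARNTL ran from -0.41 for DBP and PER2 to 0.52 for NR1D1.

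The same measure, added after seeing the data, placed other clock genes near NR1D1 and DBP in AT. The 50 genes most like NR1D1 held CIART, TEF, DBP and PER1, and the 50 most like DBP held NR1D1, NR1D2, TEF, PER1 and CIART, which is 8% and 10% of the 50, where clock genes made up 0.273% of all genes compared. Those most like ARNTL, CLOCK, PER2, CRY1, CRY2 and NR1D2 in AT held 0. In SM the 50 genes most like PER1 held CIART and NR1D1, and those most like NR1D1 held CIART and PER1, while those most like ARNTL, CLOCK, PER2, CRY2 and DBP held 0.

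The spread between animals differed among the clock genes and between the tissues. The SD of log2 CPM within time points was 0.835 for PER1 and 0.742 for NR1D1 in SM, wider than for 85.6% and 81.2% of genes there, and 0.207 for CLOCK, wider than for 6.4%. In AT it was 0.529 for ARNTL (78.9%) and 0.170 for CRY1 (9.5%). From the lowest to the highest library PER1 in SM spanned 10.9-fold, NR1D1 in SM 6.05-fold and CRY1 in AT 1.49-fold.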

How the data were processed

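Punch biopsies were sequenced as stranded mRNA libraries (paired-end, 50 nucleotides). STAR and the MacaM rhesus genome were used by the authors for alignment, and the counts they deposited are whole numbers per gene, not normalized. The counter is not given in the sources used here. FastQC, SAMtools, edgeR and limma are further tools of the submitters' processing notes. Of 16103 entries 70 repeats were dropped. Of 51 labelled samples 48 had counts, and 3 SM samples are not analysed here. Groups came from the labels.

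Tests covered the genes that reached 0.5 CPM in 10% or more of a tissue's libraries (13367 in AT, 12617 in SM), in edgeR 4.0.16 (TMM, robust quasi-likelihood, time point and animal in 1 fit per tissue). Libraries of the same animal deviated together (median r 0.35 over 25 pairs in AT and 0.28 over 19 in SM, against -0.04 and -0.05 for other pairs), so the animals pair the samples. Differences between tissues were tested over the 12322 genes common to both, with all libraries in 1 fit. Log2 CPM had a prior count of 2. Correlations had at least 6 animals and two-sided permutation p-values, exact up to 9 animals and with 100000 resamples for 10, adjusted by Benjamini-Hochberg. Library names fall into 3 series of identifiers whose meaning is not given. Alternatives included limma 3.58.1 (voom with quality weights), DESeq2 1.42.0, other scalings and filters, and leaving out animals. The edgeR test of washout against pre-treatment within a tissue and the permutation test of a correlation were tried on simulated data, and the other steps were not.

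The named genes were the clock genes, the called genes of the list of other clock genes (up to 6 per comparison) and the 6 genes most and least like ARNTL in each tissue, of which 1 is not reported here. The clock genes and all lists were chosen with earlier results of these data known, so p-values for them are not independent of that choice. Intervals and p-values cover the spread between these animals only.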

Additional observations from a re-analysis of the deposited data

Results flagged for a closer look

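Single values stood far from the rest of their group in 2 of 54 groups of gene, tissue and time point tested, by a gap to the nearest sample over Dixon's limit, where chance alone gives about 1 in 20. DBP in AT pre-treatment was 26.3 CPM in animal 24849, a gap of 0.552 of the range of the 10 samples on the log2 scale. NR1D2 in SM at washout was 254 CPM in animal 19832, a gap of 0.614 of the range of the 7 samples on the log2 scale. Between tissues the test of the difference itself singled out CLOCK and NR1D2. The change in AT minus the change in SM was -0.70 (post-treatment to washout) and -1.02 (pre-treatment to washout) for CLOCK on the log2 scale, and -0.87 and -0.77 for NR1D2, with adjusted p of 7.07e-04, 1.08e-05, 0.00508 and 0.0176 by edgeR.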

How the results depend on the processing

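The direction and call of CLOCK in AT at washout held under every alternative run in both comparisons except the restriction to the last identifier series. The number of clock genes DE was 2 in AT from post-treatment to washout; it was 4 with voom, 4 with the macrophage covariate, 3 with the 2 time points alone (DBP added, adjusted p = 0.0308 by edgeR), 0 in the last series and 2 to 3 with each animal left out. From pre-treatment to washout it was 2 in AT, and 1 with library size alone, 1 with no replicate block, 1 without the pre-treatment sample of animal 20275, 4 with the macrophage covariate, 0 in the last series and 1 to 2 with each animal left out. Without the block the calls lost were NR1D2 and, of the other clock genes, PRKAA2 in both of its comparisons, NAMPT and FBXW11 from pre-treatment to washout. In SM, where 0 were DE, 1 (PER2) was with the identifier series as a covariate and 1 in the last series from post-treatment to washout, and 1 (CLOCK) by DESeq2 from pre-treatment to washout. For levels, 8 became 5 with library size alone. Of the list of other clock genes, the 1 DE in AT post-treatment became 2 with voom, 2 with DESeq2, 0 with no replicate block, 0 with the macrophage covariate, 0 in the last series and 1 to 3 with each animal left out; the 6 at washout against post-treatment became 3 in the last series; and the 6 against pre-treatment became 3 with no replicate block and 2 in the last series. In SM its 0 from post-treatment to washout became 1 with DESeq2, 1 with no replicate block, 4 with the series covariate and 7 in the last series, where 3026 of 12737 genes (23.8%) were DE, and its 0 from pre-treatment to washout became 1 with DESeq2 and 3 with the series covariate. With animal effects kept, 0 of the 6 highest and 1 of the 6 lowest genes most like ARNTL were shared in AT, and 0 and 1 in SM. Over all genes, calls in SM went from 24 and 8 in the washout comparisons to 2648 and 1353 with the series covariate and to 359 and 170 with DESeq2. In AT from pre- to post-treatment they went from 2068 to 128 with the macrophage covariate. In AT from pre-treatment to washout 1671 genes rose and 1064 fell, against 2313 and 590 with library size alone. From post-treatment to washout the split was 2352 and 2379, against 2979 and 1750. For AT minus SM it was 1461 and 1333, against 2265 and 756, from post-treatment to washout and 1125 and 1032, against 1815 and 559, from pre-treatment to washout, where library size alone moved the median of all genes from 0.03 to 0.25 and from -0.01 to 0.23. In SM from post-treatment to washout it moved from -0.03 to -0.16. For levels the split was 5080 and 4511, against 7488 and 2181. The causes were not tested.

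Signs reversed mostly in small, uncalled values (log2). Without the pre-treatment sample of animal 20275, PER1 in AT was 0.040, 0.027 and 0.067 in the 3 comparisons and NR1D1 was 0.050 post-treatment. PER1 in AT from post-treatment to washout was 0.0063 with DESeq2, 0.0070 with RLE factors, 0.0059 with at least 10 counts per library, 0.058 with the 2 time points alone, 0.023 with the series covariate, 0.089 without the replicate block and 0.13 in the last series. With the series covariate NR1D1 and DBP in SM post-treatment were 0.013 and -0.15, and CRY1 in SM from post-treatment to washout was -0.082. With library size alone PER1 in AT was 0.0027, 0.071 and 0.074, CRY1 in AT at washout against pre-treatment 0.060, CRY1 in SM against post-treatment -0.092, ARNTL and CRY2 in SM against pre-treatment -0.0043 and -0.021, the AT minus SM change of NR1D1 0.069 and 0.20 and of CRY2 0.016, and the level difference of NR1D1 0.53 and of NR1D2 0.0100. Without the block CRY1 in SM was -0.011, and with animals of both tissues NR1D1 differed by 0.047. In the last series DBP in AT post-treatment was -0.017, PER2 in AT from post-treatment to washout 0.15, PER2 and DBP in SM post-treatment -0.066 and -0.85, and CRY1 in SM at washout -0.31. With the macrophage covariate ARNTL, PER1, CRY2 and NR1D1 in AT post-treatment were -0.16, 0.30, 0.054 and 0.29, ARNTL (then DE), CRY1 and CRY2 at washout against post-treatment 0.94, -0.023 and -0.40, DBP in SM post-treatment -0.022 and CRY2 in SM at washout -0.044. With voom PER1 and NR1D1 in AT post-treatment were 0.056 and 0.091, ARNTL from post-treatment to washout 0.097, PER1 from pre-treatment to washout 0.017, and CRY1 and CRY2 in SM post-treatment -0.00049 and 0.016. With each animal left out, PER1 in AT ran from -0.17 to 0.13, -0.17 to 0.11 and -0.13 to 0.045, NR1D1 in AT post-treatment from -0.16 to 0.10, PER2, NR1D2 and DBP in SM post-treatment from -0.077 to 0.22, -0.044 to 0.13 and -0.22 to 0.32, CRY1 and NR1D1 in SM from post-treatment to washout from -0.068 to 0.10 and -0.37 to 0.17, and ARNTL in SM from pre-treatment to washout from -0.085 to 0.25.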
